A study of Mus musculus with 6 samples.

Results

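The genes described here are the 4 metallothionein genes measured on the array (Mt1, Mt2, Mt3 and Mt4), the metal-sensing factor Mtf1, and 5 zinc or manganese transporters of the intestine (Slc39a4, Slc39a5, Slc30a1, Slc30a2 and Slc30a10), 10 of the 19938 genes tested. They were picked by name, with earlier results of these data known, so the tests below describe them and are not independent evidence for the choice. Where a gene had several rows on the array, its row was to be chosen by the highest mean over the 6 arrays; each of the 10 genes had 1 row, so that step changed nothing. The tested mice were ISR2 mice, a transgenic C57/BL line with overactive SREBP2 in the intestine, represented by 3 arrays. Their controls were wild type C57/BL littermates, also represented by 3 arrays. All were 8 to 10 weeks old and ate regular chow, and the RNA came from mucosa scraped off the jejunum. The sources used here do not give the transgene's promoter. Nor do the labels tie each array to a mouse of its own, and p-values therefore rest on the spread among these arrays, which may be technical.

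Metallothioneins are small proteins whose many cysteines bind zinc and copper. In mouse cells zinc activates the transcription factor MTF-1, the product of Mtf1, which binds metal response elements and switches on Mt1, Mt2 and the zinc exporter gene Slc30a1. In the small intestine dietary zinc enters enterocytes through the apical importer ZIP4 (Slc39a4) and leaves across the basolateral membrane through ZnT1 (Slc30a1). ZIP5 (Slc39a5) works at the basolateral side and carries zinc from the blood into the cell. ZIP genes encode carriers that bring metal into the cytosol, and ZnT genes encode carriers that move it out or into vesicles.

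The 4 metallothionein genes form a cluster on chromosome 8 in the order Mt4, Mt3, Mt2, Mt1, with the noncoding RNA gene Gm39227 annotated between Mt3 and Mt2. The windows around their RefSeq starts (GRCm38.p6, plus strand, 250 bases before to 50 after) are shown because only Mt1 and Mt2 of these 4 genes passed the test described further on. Capitals mark the metal response element core, searched as TGCACNC and TGCGCNC on both strands. The windows lie at chr8:94178839-94179138 for Mt1, chr8:94172368-94172667 for Mt2, chr8:94152357-94152656 for Mt3 and chr8:94136954-94137253 for Mt4.
Mt1: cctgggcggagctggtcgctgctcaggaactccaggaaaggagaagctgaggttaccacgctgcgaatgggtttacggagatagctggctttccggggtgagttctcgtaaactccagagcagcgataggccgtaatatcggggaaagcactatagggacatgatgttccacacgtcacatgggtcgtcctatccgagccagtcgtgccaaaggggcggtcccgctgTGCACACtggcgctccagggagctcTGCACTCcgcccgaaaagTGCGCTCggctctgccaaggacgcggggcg
Mt2: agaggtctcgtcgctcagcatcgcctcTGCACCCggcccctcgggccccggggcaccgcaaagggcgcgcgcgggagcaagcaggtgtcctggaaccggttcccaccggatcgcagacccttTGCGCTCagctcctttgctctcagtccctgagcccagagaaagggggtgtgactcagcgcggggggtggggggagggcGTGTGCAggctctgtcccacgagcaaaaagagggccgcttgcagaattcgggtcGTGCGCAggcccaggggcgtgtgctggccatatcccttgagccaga
Mt3: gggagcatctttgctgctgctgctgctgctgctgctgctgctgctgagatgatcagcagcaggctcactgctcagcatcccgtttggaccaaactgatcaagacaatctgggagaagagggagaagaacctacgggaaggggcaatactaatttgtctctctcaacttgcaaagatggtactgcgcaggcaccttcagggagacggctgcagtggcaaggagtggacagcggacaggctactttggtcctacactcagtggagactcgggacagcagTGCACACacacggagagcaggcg
Mt4: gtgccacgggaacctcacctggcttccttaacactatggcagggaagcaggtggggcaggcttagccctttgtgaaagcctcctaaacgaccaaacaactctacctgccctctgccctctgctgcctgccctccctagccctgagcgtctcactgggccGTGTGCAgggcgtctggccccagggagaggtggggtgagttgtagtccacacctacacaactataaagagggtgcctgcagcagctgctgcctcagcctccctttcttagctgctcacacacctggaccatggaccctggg

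The Mt2 window held 4 core matches, of which 3 lay before the start, and the Mt1 window held 3, of which 1 lay before the start. Those of Mt3 and Mt4 held 1 each, after the start in Mt3 and before it in Mt4. Of all 32851 windows of this length in the RefSeq table, 25.7% held at least 1 match, 1.97% at least 3 and 0.517% at least 4. The Slc30a10 window held 3 matches, 2 of which overlap on opposite strands, and those of Slc30a1 and Slc30a2 held 2 each. Slc39a5 has 2 annotated starts, with 1 and 0 matches, and the Mtf1 window held 0. Slc39a4 had no entry in the table, so 9 of the 10 genes were searched. The sterol regulatory element core, searched as TCACNCCAC on both strands, is a form of the site that SREBP factors bind. It was found once among these windows, in that of Mt4, and in 1.24% of all windows. A match is a stretch of letters, and binding was not measured. Before and after refer to the RefSeq start, and where transcription starts in this mucosa was not measured.

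**Figure D1:**
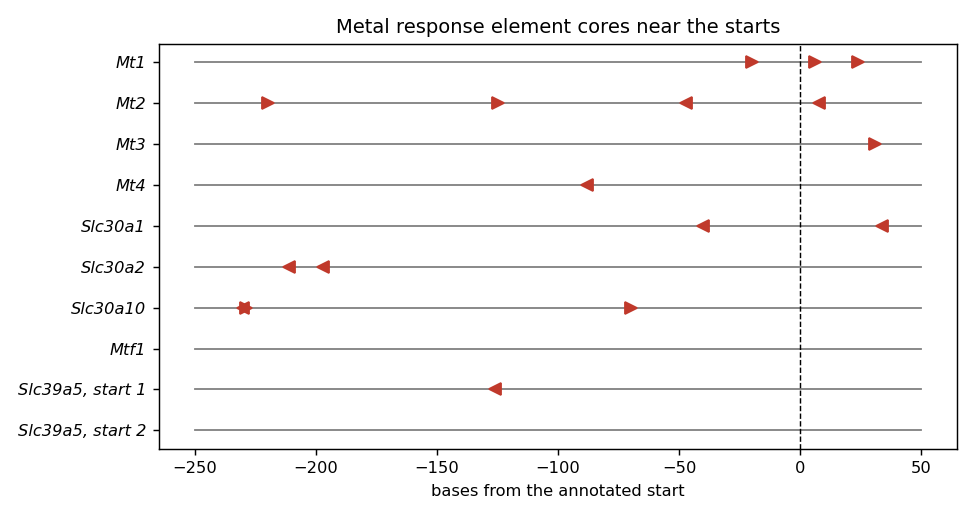
Positions of the metal response element core in the windows of 9 of the 10 genes, in bases from the annotated start (dashed line at 0). Triangles point right for matches on the gene's own strand and left for the opposite strand; Mt2 has 4, Mt1 and Slc30a10 have 3 each, and the 2 outermost of Slc30a10 overlap.

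Mt1 and Mt2, the broadly expressed metallothioneins, rose in ISR2 mucosa. On the log2 scale of RMA, Mt1 stood at 11.55, 11.49 and 11.67 in ISR2 replicates 1, 2 and 3, against 10.28, 9.76 and 9.89 in wild type replicates 1, 2 and 3. The lowest ISR2 array thus lay above the highest wild type array. The mean level was 11.57 ± 0.09 in ISR2 and 9.98 ± 0.27 in wild type (SD, n = 3 each), a 3.02-fold rise (log2 difference 1.60 ± 0.16, SE; limma adjusted p = 0.000584).

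Mt2 stood at 12.30, 12.54 and 12.43 in the ISR2 arrays, against 11.51, 10.60 and 10.89 in the wild type arrays. Again the groups did not overlap, and wild type replicate 1 was the highest wild type array for both genes. The rise was 2.68-fold, with means of 12.42 ± 0.12 in ISR2 and 10.997 ± 0.46 in wild type (SD, n = 3 each; log2 difference 1.42 ± 0.22, SE; limma adjusted p = 0.00688). Both genes still passed when any 1 array was left out, with log2 differences of 1.49 to 1.75 for Mt1 and 1.23 to 1.68 for Mt2. The pair are close relatives in sequence, and how far their probes read each other's RNA was not tested.

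Neither of the other metallothioneins passed. Mt3, known mainly from the brain, stood at 7.48, 7.66 and 7.27 in ISR2 arrays, against 7.63, 7.51 and 7.46 in wild type arrays. The groups overlapped, and the log2 difference was -0.06 ± 0.14 (SE; 95% interval -0.38 to 0.25; limma adjusted p = 0.908). Mt4, known from squamous epithelia, stood at 6.86, 6.88 and 6.37 in ISR2 arrays, against 5.95, 6.30 and 6.003 in wild type arrays. The ISR2 arrays were all above the wild type arrays, but the log2 difference of 0.62 ± 0.17 (SE) did not pass (limma adjusted p = 0.123). It passed without ISR2 replicate 3, at 0.79 (limma adjusted p = 0.0461). Of the 6 squamous markers measured, such as Krt5 and Krt14, none passed in limma, beside 3.02% of all genes. At an unadjusted p under 0.05, 1 was lower and 0 higher, beside 8.4% and 4.73% of all genes. The list had a mean level of 5.61 to 5.73 in ISR2 arrays and 5.73 to 5.78 in wild type arrays. No detection call was available, so it is not known whether Mt4 was above background.

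The nearest measured genes on either side of the cluster gave no call. Beyond Mt4, Bbs2, a gene of the cilium-related BBSome complex, had a log2 difference of -0.13 ± 0.14 (SE; limma adjusted p = 0.762). Beyond Mt1, Nup93, a nuclear pore gene, had 0.47 ± 0.22 (SE; limma adjusted p = 0.413). Whether Mt1 and Mt2 differ from these neighbours in their response was not tested.

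Mtf1 itself did not pass. It stood at 8.32, 8.32 and 8.30 in ISR2 arrays, against 8.64, 8.35 and 8.26 in wild type arrays, and the groups overlapped. The log2 difference was -0.10 ± 0.14 (SE; 95% interval -0.41 to 0.21; limma adjusted p = 0.833). These are mRNA values, and neither the protein nor its location was measured.

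**Figure D2:**
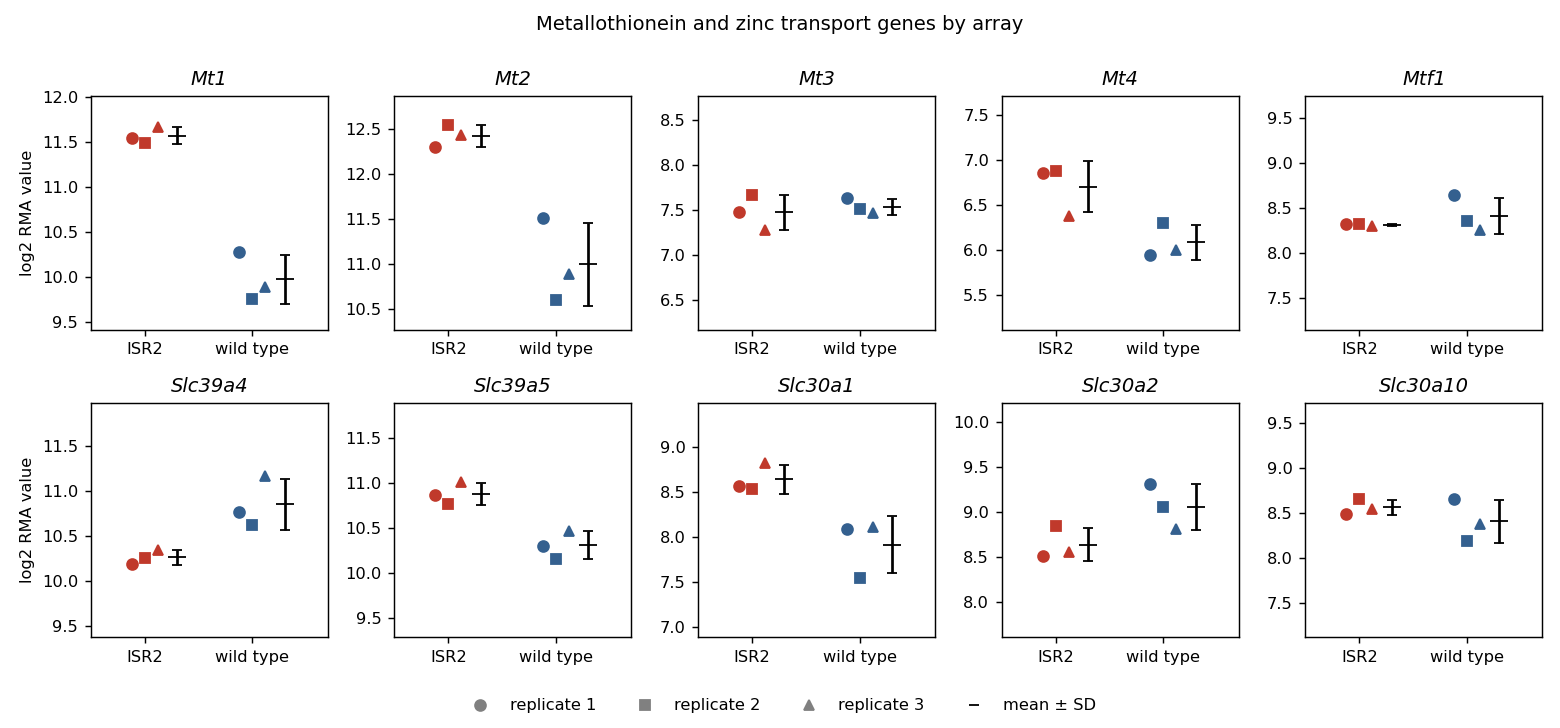
Log2 RMA values of the 10 genes in each array, ISR2 in red and wild type in blue, with the mean and SD of 3 arrays in black; every panel spans the same log2 range. Mt1 and Mt2 show the widest separation, with all ISR2 arrays at or above 11.49 for Mt1 against at most 10.28 in wild type.

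The importers of the enterocyte's opposite faces stood in opposite directions, and neither passed the threshold of 0.05. Slc39a4, the apical importer, stood at 10.19, 10.25 and 10.35 in ISR2 arrays, against 10.77, 10.62 and 11.17 in wild type arrays. All ISR2 arrays were below all wild type arrays, with a log2 difference of -0.59 ± 0.16 (SE; 95% interval -0.95 to -0.23; limma adjusted p = 0.111). Slc39a5, the basolateral importer, stood at 10.87, 10.78 and 11.02 in ISR2 arrays, against 10.31, 10.17 and 10.47 in wild type arrays. Here all ISR2 arrays were above all wild type arrays, with a log2 difference of 0.57 ± 0.14 (SE; 95% interval 0.27 to 0.88; limma adjusted p = 0.0642).

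Slc30a1, the basolateral zinc exporter, stood at 8.57, 8.54 and 8.83 in ISR2 arrays, against 8.09, 7.55 and 8.11 in wild type arrays. The groups did not overlap, and the log2 difference was 0.73 ± 0.18 (SE; 95% interval 0.33 to 1.13; limma adjusted p = 0.0715). It was 0.55 without wild type replicate 2, the array with the lowest value. With weights estimated for each array, Slc30a1, Slc39a5 and Mt4 passed upward and Slc39a4 and Slc30a2 passed downward, which made 5 rises and 2 falls among the 10 genes. Over all genes that fit called 630 rises and 638 falls, against 356 and 246 with equal weights.

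The remaining exporters did not pass. Slc30a2, which loads zinc into vesicles and is known from Paneth cell granules, stood at 8.51, 8.84 and 8.55 in ISR2 arrays, against 9.30, 9.05 and 8.80 in wild type arrays. The groups overlapped at ISR2 replicate 2 and wild type replicate 3, and the log2 difference was -0.42 ± 0.16 (SE; limma adjusted p = 0.307). Slc30a10, a manganese exporter, stood at 8.49, 8.65 and 8.55 in ISR2 arrays, against 8.66, 8.18 and 8.38 in wild type arrays. Its groups overlapped, with a log2 difference of 0.16 ± 0.15 (SE; 95% interval -0.18 to 0.49; limma adjusted p = 0.741).

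Counted together, 2 of the 10 genes rose, none fell and 8 did not pass. At an unadjusted p under 0.05, 5 were higher and 2 lower, beside 4.73% higher and 8.4% lower over all genes. Over all genes tested, 3.02% were called, 1.79% upward and 1.23% downward. The arrays of the groups did not overlap for 6 of the 10 genes, 5 higher and 1 lower in ISR2, while this held for 19.8% of all genes, 5.87% higher and 13.9% lower. The median log2 difference of the 10 genes was 0.36, beside -0.06 over all genes. As the genes were picked with earlier results known, these shares are a description.

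**Figure D3:**
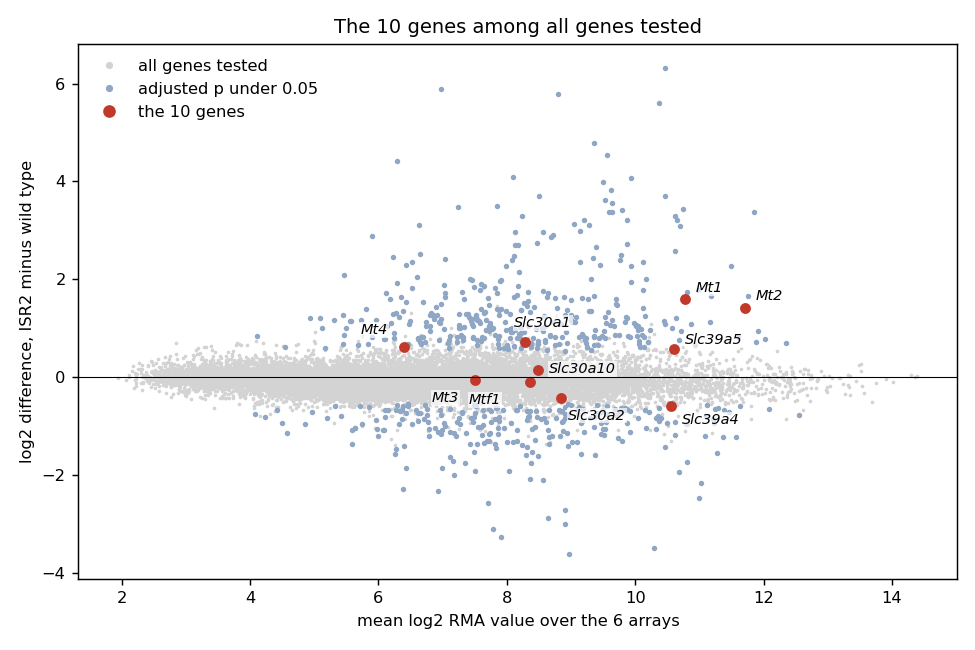
Log2 difference between ISR2 and wild type against the mean log2 RMA value over the 6 arrays, for all 19938 genes (grey), those with an adjusted p under 0.05 (blue) and the 10 genes (red). Mt1 lies at 1.60 and Mt2 at 1.42, while Mt3, Mtf1 and Slc30a10 lie between -0.10 and 0.16.

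Of the 19 other ZnT and ZIP genes, 0 rose in limma, 1 fell and 18 did not pass; at an unadjusted p under 0.05, 0 were higher and 4 lower, beside the 4.73% and 8.4% of all genes. Their median log2 difference was -0.13, with a range of -0.66 to 0.41. The 1 that fell was Slc39a9, a ZIP carrier of the secretory pathway. It stood at 9.83, 9.75 and 9.88 in ISR2 arrays, against 10.47, 10.41 and 10.57 in wild type arrays. The groups were well apart, with a log2 difference of -0.66 ± 0.12 (SE; limma adjusted p = 0.0176). The call was lost without ISR2 replicate 1 or without wild type replicate 1, 2 or 3 (limma adjusted p = 0.0879, 0.0770, 0.0543 and 0.0747), although the difference stayed between -0.70 and -0.62.

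The next smallest p-values among those 19 genes belonged to Slc30a5, Slc39a1, Slc39a14 and Slc30a4. Slc30a5, which carries zinc into the early secretory pathway, differed by -0.40 ± 0.12 (SE; limma adjusted p = 0.17). Slc39a1, a plasma membrane importer, differed by -0.36 ± 0.14 and Slc39a14, which also carries iron and manganese, by -0.34 ± 0.15 (SE; limma adjusted p = 0.314 and 0.36). Slc30a4, an exporter into vesicles, differed by -0.32 ± 0.16 (SE; limma adjusted p = 0.45). Of these 4 genes, picked here by their p-values, all but Slc30a4 had ISR2 arrays below all wild type arrays. Over the 19 genes this held for 4, beside 13.9% of all genes, and the reverse for 0, beside 5.87%.

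**Figure D4:**
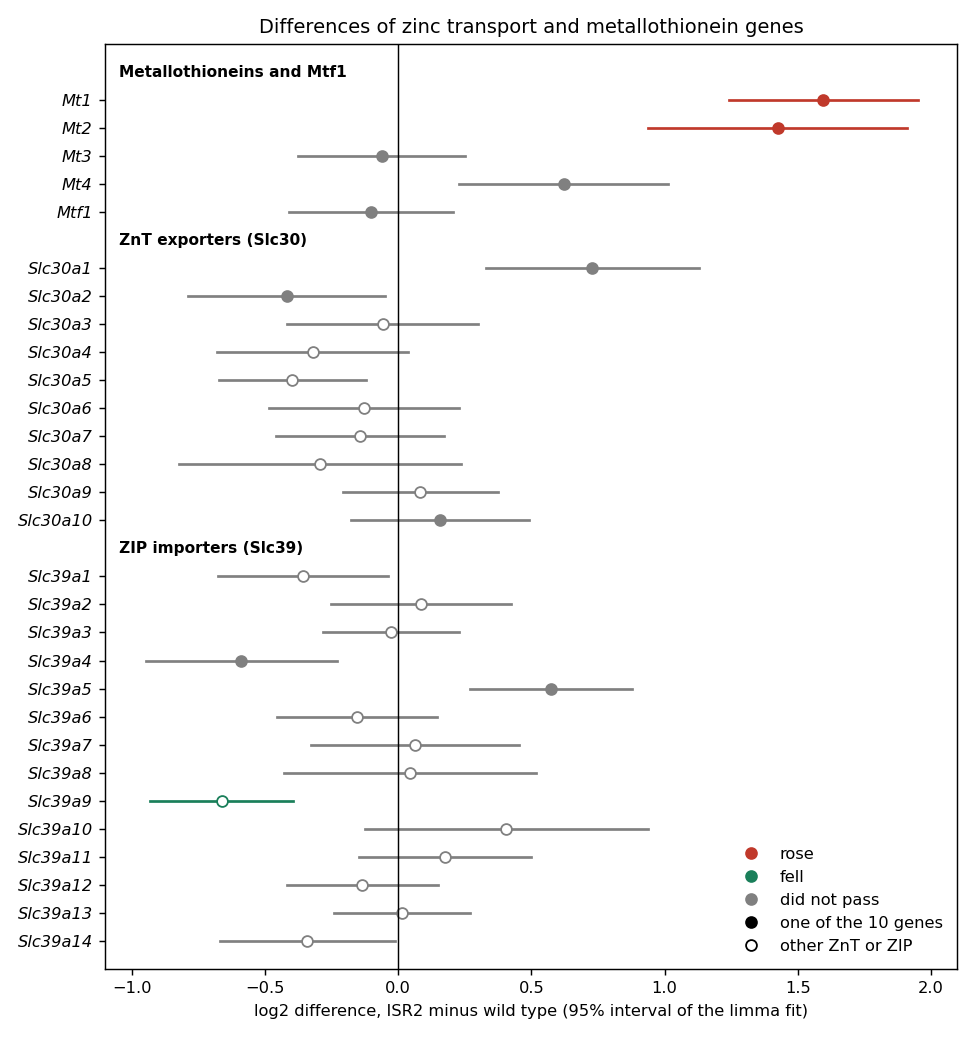
Log2 difference, ISR2 minus wild type, of the metallothionein, ZnT and ZIP genes with the 95% interval of the limma fit for that gene alone. Mt1 and Mt2 rose, Slc39a9 fell, and the grey intervals that leave out 0, such as those of Mt4, Slc30a1, Slc39a4 and Slc39a5, belong to genes whose adjusted p-values did not pass.

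By Pearson's r over the 6 arrays, a measure that a shared difference between the groups raises by itself, the 5 genes most like Mt1 were Neu1, Ppfia3, Wfs1, Cpn1 and Tmem98 (r of 0.995 to 0.997). Neu1 encodes a lysosomal sialidase, Wfs1 a membrane protein of the endoplasmic reticulum and Cpn1 a carboxypeptidase. The same measure gave 0.978 for Mt2, 0.937 for Slc39a5, 0.923 for Slc30a1 and -0.843 for Slc39a4. For Slc30a1, the 5 most like were Cblc, Mettl27, Trappc6a, Mfsd13a and Glo1 (r of 0.985 to 0.993).

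Copper is bound by metallothioneins as well, and the copper genes gave no call. Of 11 measured copper handling genes, 0 rose or fell in limma, beside 1.79% and 1.23% of all genes. At an unadjusted p under 0.05, 0 were higher and 1 lower, beside 4.73% and 8.4% of all genes. That 1 was Slc31a2, a copper transporter of internal membranes, at -0.51 ± 0.17 (SE; limma adjusted p = 0.225). Heph, the copper-dependent ferroxidase of the enterocyte, differed by -0.24 ± 0.12 and Sod1, the copper-zinc superoxide dismutase, by 0.18 ± 0.14 (SE; limma adjusted p = 0.453 and 0.671). The list's median log2 difference was 0.00.

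Mt1 and Mt2 are also known to respond to oxidants and glucocorticoids, and whether either had a part in their rises here was not tested. Among 8 genes of the oxidant response, 2 rose and 0 fell, beside 1.79% and 1.23% of all genes. Their median log2 difference was 0.43, with a range of -0.14 to 0.96, and 7 were higher and 1 lower in ISR2 on average. Of these 8 genes, 5 were higher and 0 lower at an unadjusted p under 0.05, beside 4.73% and 8.4% of all genes. Gclc, which makes the first step of glutathione synthesis, rose 1.81-fold (log2 difference 0.85 ± 0.13, SE; limma adjusted p = 0.0087). Gsr, glutathione reductase, rose 1.94-fold (0.96 ± 0.17, SE; limma adjusted p = 0.0183). Hmox1, heme oxygenase, had a log2 difference of 0.50 ± 0.12 (SE; limma adjusted p = 0.0706). The call of Gclc was lost without wild type replicate 1 (limma adjusted p = 0.0533), and that of Gsr without ISR2 replicate 1 (0.107), ISR2 replicate 3 (0.071), wild type replicate 1 (0.102) or wild type replicate 2 (0.0805).

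Of 8 genes that glucocorticoids induce, 0 rose in limma and 1 fell, with a median log2 difference of 0.03. At an unadjusted p under 0.05, 2 were higher and 3 lower, beside 4.73% and 8.4% of all genes. The 1 that fell was Errfi1, an inhibitor of EGF receptor signalling, at -0.93 ± 0.17 (SE; limma adjusted p = 0.0186). It no longer passed in limma without ISR2 replicate 1 (adjusted p = 0.0963), ISR2 replicate 3 (0.0636), wild type replicate 1 (0.0938) or wild type replicate 2 (0.0584). Tsc22d3, which encodes GILZ, had 0.61 ± 0.16 and Dusp1, a MAP kinase phosphatase, -0.80 ± 0.23 (SE; limma adjusted p = 0.11 and 0.133). Tsc22d3 passed without wild type replicate 2 (log2 difference 0.77; limma adjusted p = 0.0449).

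Enzymes of the mucosa that need zinc included 3 falls and 0 rises among 11 measured, with a median log2 difference of -0.18. Over all genes 1.23% fell and 1.79% rose. In this list 0 were higher and 5 lower at an unadjusted p under 0.05, beside 4.73% and 8.4% of all genes. Ada, adenosine deaminase, stood at 8.42, 10.32 and 6.92 in ISR2 arrays, against 12.46, 12.09 and 11.54 in wild type arrays, and was 11.1-fold lower (log2 difference -3.47 ± 0.69, SE; limma adjusted p = 0.0293). Alpi, intestinal alkaline phosphatase, had a log2 difference of -0.77 ± 0.16 and Mep1a, a meprin subunit, -0.61 ± 0.13 (SE; limma adjusted p = 0.0417 and 0.0462). Each of these calls was lost without some single array. The log2 difference of Ada was -4.36 without ISR2 replicate 2 and -2.66 without ISR2 replicate 3. Ada was lost without ISR2 replicate 1 (limma adjusted p = 0.137), wild type replicate 1 (0.147) or wild type replicate 2 (0.0939). Alpi was lost when any 1 array other than ISR2 replicate 2 was left out, and Mep1a when any 1 array was left out (limma adjusted p up to 0.194 and 0.202). All 3 were also lost with every array row tested (limma adjusted p = 0.104, 0.112 and 0.11).

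The cell makeup of the scrapings bears on these values, since in bulk RNA fewer cells of a type and less RNA per cell cannot be told apart. Averaged over the 8 enterocyte markers, such as Vil1 and Sis, ISR2 arrays lay at 12.63 to 12.86 on the log2 scale and wild type arrays at 12.99 to 13.01, and 0 of the 8 passed in limma (5 were lower at an unadjusted p under 0.05). The T cell and intraepithelial lymphocyte markers fell in 5 of 7, with a list mean of 6.90 to 7.60 in ISR2 arrays and 8.05 to 8.66 in wild type arrays. Their part in the differences of Mt1 and Mt2 was not tested. Of the other cell types, 1 of 6 goblet cell markers fell (Spink4), and no B cell, neuronal or enteroendocrine marker passed. The macrophage list of 5 had 1 rise (Cd14), while the other 4 were lower in ISR2 on average. Its list mean differed by -0.05 on the log2 scale, ISR2 minus wild type. Among all genes, 1.23% fell and 1.79% rose, and 8.4% were lower and 4.73% higher at an unadjusted p under 0.05.

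Markers of the cells in which Slc30a2 and Slc39a5 are also known did not pass. The 6 measured Paneth cell markers, such as Lyz1, were all lower in ISR2 on average. Of these, 3 were lower at an unadjusted p under 0.05, beside 8.4% of all genes. The list mean was 9.34 to 10.38 in ISR2 arrays and 10.13 to 10.73 in wild type arrays. As group means, ISR2 minus wild type on the log2 scale, the Paneth list differed by -0.48 and Slc30a2 by -0.42. Within the ISR2 arrays, replicate 2 had the lowest Paneth list mean and the highest Slc30a2 value. Of the 8 measured pancreatic acinar markers, such as Cpa1, 0 had an unadjusted p under 0.05, beside 4.73% higher and 8.4% lower over all genes. Their list mean was 6.12 to 6.19 in ISR2 arrays and 6.35 to 6.48 in wild type arrays. None of the marker lists was at 0, as RMA values have no zero, and the part of these cells in Slc30a2 and Slc39a5 was not tested.

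Smooth muscle markers set 2 arrays apart. The smooth muscle and stroma list of 8 gave no call, beside 3.02% of all genes. At an unadjusted p under 0.05, 0 were higher or lower, beside 4.73% and 8.4% of all genes. The fit was imprecise for some of them, with an SE of 1.02 for Des and 0.97 for Myh11. The list averaged 9.54 in ISR2 replicate 2 and 10.25 in wild type replicate 2. The other ISR2 arrays were at 7.87 and 7.97, and the other wild type arrays at 7.33 and 7.83. Its 6 muscle genes, such as Myh11 and Des, were highest in replicate 2 of both groups, while its collagen genes Col1a1 and Col3a1 were lowest in replicate 2 among the ISR2 arrays and highest in replicate 2 among the wild type arrays. Mt1, Mt2, Slc30a1 and Slc39a5, which were higher in ISR2 on average, had their lowest wild type value in wild type replicate 2, and so did Slc30a10 and Slc39a4, of which Slc39a4 was lower in ISR2. Without both of these arrays the log2 difference was 1.53 for Mt1 and 1.17 for Mt2, and both still passed (limma adjusted p = 0.00443 and 0.0371). In the same comparison it was 0.60 for Slc30a1 and 0.55 for Slc39a5 (limma adjusted p = 0.145 and 0.168), and no zinc carrier passed.

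**Figure D5:**
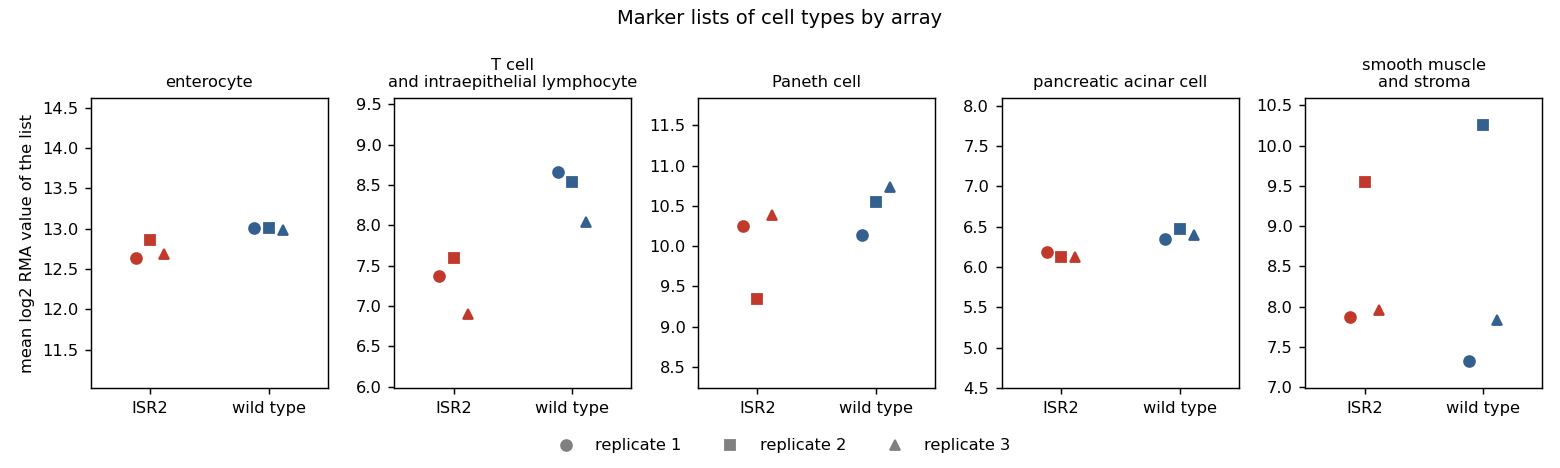
Mean log2 RMA value of 5 marker lists in each array, ISR2 in red and wild type in blue; every panel spans the same log2 range. The mean of the lymphocyte list was lower in all ISR2 arrays than in any wild type array. That of the smooth muscle and stroma list was high in replicate 2 of both groups, at 9.54 in ISR2 and 10.25 in wild type. Its collagen genes Col1a1 and Col3a1, however, were lowest in replicate 2 among the ISR2 arrays.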

How the data were processed

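Biotin-labelled total RNA was hybridised to the arrays, per the labels. The authors made the deposited log2 values with RMA, as the submitters' processing notes name it and the range of the values shows the log scale; its version and settings are not stated there. RMA equalises array distributions, so a difference is relative to the other genes, and leftover background can compress dim genes. The array annotation gave 1 symbol to 21789 of 35556 rows; the brightest row stood for a gene, which left 19938 genes, with no filter on intensity. Array medians were 6.04 to 6.19. Groups came from the sample titles.

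All genes entered 1 limma fit (version 3.58.1, R 4.3.3, lmFit and eBayes) of ISR2 minus wild type with no covariates. Tests were two-sided, with Benjamini-Hochberg over all genes and a threshold of 0.05. A run on simulated data checked only that differences larger than any among the 10 genes were called and estimated. The 10 genes, the lists and the rule for named genes (all 10; called ZnT and ZIP genes and the next 4; 3 smallest p of each other list; 5 most correlated) were chosen with earlier results of these data known. Cluster neighbours, collagen genes and example markers were named after values were seen. Some listed genes, 7 of them markers, were not analysed here. Windows are RefSeq's (GRCm38.p6). Alternatives changed the eBayes options, array weights, centring, normalization, a dim-gene filter, the row choice, the replicate block and the arrays included; leaving out replicate 2 of both groups was added after seeing the data.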

Additional observations from a re-analysis of the deposited data

How the results depend on the processing

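Mt1 and Mt2 kept their direction and passed in all 17 alternative fits, with log2 differences of 1.49 to 1.75 and 1.17 to 1.68. The count of the 10 genes that rose was 2, and it was 5 with array weights and 4 with the replicate block; it was 2 to 3 when 1 array was left out, and 3 with an intensity trend. None fell except with array weights, where 2 did. Of the other zinc carriers 1 fell, but 0 with all rows tested, 0 to 1 when 1 array was left out, and 0 with ISR2 replicate 2 and wild type replicate 3 left out or replicate 2 of both groups left out. The cause of these changes was not tested. With 1 array left out Mt3 ranged from -0.158 to 0.036, above 0 without ISR2 replicate 3, and Mtf1 from -0.181 to 0.0101, above 0 without wild type replicate 1. Slc39a5 passed with the replicate block, with an intensity trend and with ISR2 replicate 2 and wild type replicate 3 left out (limma adjusted p = 0.0365, 0.0472 and 0.0436), and Slc30a1 with the replicate block (0.0257). Calls lost with all rows tested were those of Slc39a9 (0.0557), Gsr (0.0734), Errfi1 (0.0734), Ada, Alpi and Mep1a. Ada was lost with the robust option (0.174), Alpi and Mep1a with median centring (0.0721 and 0.106), and Gclc, Alpi and Mep1a without replicate 2 of both groups (0.0522, 0.087 and 0.0656).

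Whether the replicate numbers pair the arrays was not settled. The correlations of same-numbered arrays' deviations from their group means, across genes, were -0.02, 0.32 and 0.54 for replicates 1, 2 and 3. ISR2 replicates 2 and 3 correlated best with the wild type array of their own number. ISR2 replicate 1 instead correlated best with wild type replicate 3 (0.13). With 3 arrays per group and no detection calls, the number of arrays limits the precision.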
